A study of Mus musculus with 2 samples.

Results

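The genes described here carry glucose from its entry into the cell to pyruvate, and pyruvate to lactate or to the mitochondrion. The list held 38 mouse genes, several of them alternative isoforms of the same step. Their probe sets (groups of oligonucleotides read as 1 value) were taken wherever the array's annotation gave exactly 1 of these gene symbols. That left 75 probe sets for 35 of the 38 genes, out of 34958 probe sets for 18194 genes in all. No probe set was assigned here to Gpi1, Pfkfb1 or Eno1, alone or with other genes. The isomerase step was therefore not measured, and enolase was seen through Eno2 and Eno3 only.

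The data are 2 expression arrays of 1 group, a mouse embryonic stem (ES) cell line whose genotype label reads Del1.3MbWBS, a deletion of 1.3 Mb of the Williams-Beuren syndrome (WBS) region. Per the labels, the culture medium held 20% serum replacement and LIF, the cytokine that keeps mouse ES cells undifferentiated, the cells grew on feeder cells in 5% CO2, and 6 µg of total RNA was labelled for the array. The labels call the arrays biological replicates but name no separate cultures, and part of their spread may be technical. It is 1 line, and no line without the deletion was analysed here, so the values describe which isoforms were measured in this culture and not what the deletion did.

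Glycolysis splits glucose into pyruvate in the cytosol, and vertebrates use different genes for the same step in different tissues. Isoforms differ in affinity and regulation: the glucose transporters and hexokinases set how much glucose enters, phosphofructokinase and the PFKFB enzymes that make its activator set the pace, and pyruvate kinase closes the path. Lactate dehydrogenase and the monocarboxylate transporters dispose of pyruvate as lactate, whereas the pyruvate dehydrogenase (PDH) complex feeds it into the mitochondrion unless a PDH kinase phosphorylates it. Pluripotent cells are known for high glycolytic flux.

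Values are RMA log2 values. A probe set was called above background when it exceeded, on each array, the 95th percentile of 43 probe sets of 38 olfactory receptor genes, which stood for transcripts not expected in these cells. The thresholds were 5.57 on replicate 1 and 5.54 on replicate 2. Both array values (replicate 1, then replicate 2) are given in place of a mean and SD. Probe sets differ in affinity, so values of different genes stand side by side below without an order. The measure of isoform choice is whether a gene was above background. The arrays had medians of 6.01 and 6.01, and quartiles of 4.53 and 8.19 on replicate 1 and of 4.51 and 8.21 on replicate 2.

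Most of the pathway was above background in this bulk RNA, in which fewer cells of a type and less RNA per cell cannot be told apart. This held for 62 of the 75 probe sets (82.7%), against 62.4% of all probe sets of 1 gene. At least 1 probe set was above background in 32 of the 35 measured genes (91.4%), against 68.9% of all genes. Every probe set was above background in 24 of the 35 (68.6%), against 47.5% of all genes. In 8 genes some probe sets were above and others were not. The 3 genes with none above were Slc2a2, Pdk2 and Slc16a3, each measured by 1 probe set. The members had 2.14 probe sets a gene on average and all genes 1.92, which gives the members slightly more chances. Of the 14 members with a single probe set, 11 were above background, against 54.0% of the 9182 genes with a single one. The median value was 9.20 over the members' probe sets and 6.46 over all probe sets of 1 gene.

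**Figure D1:**
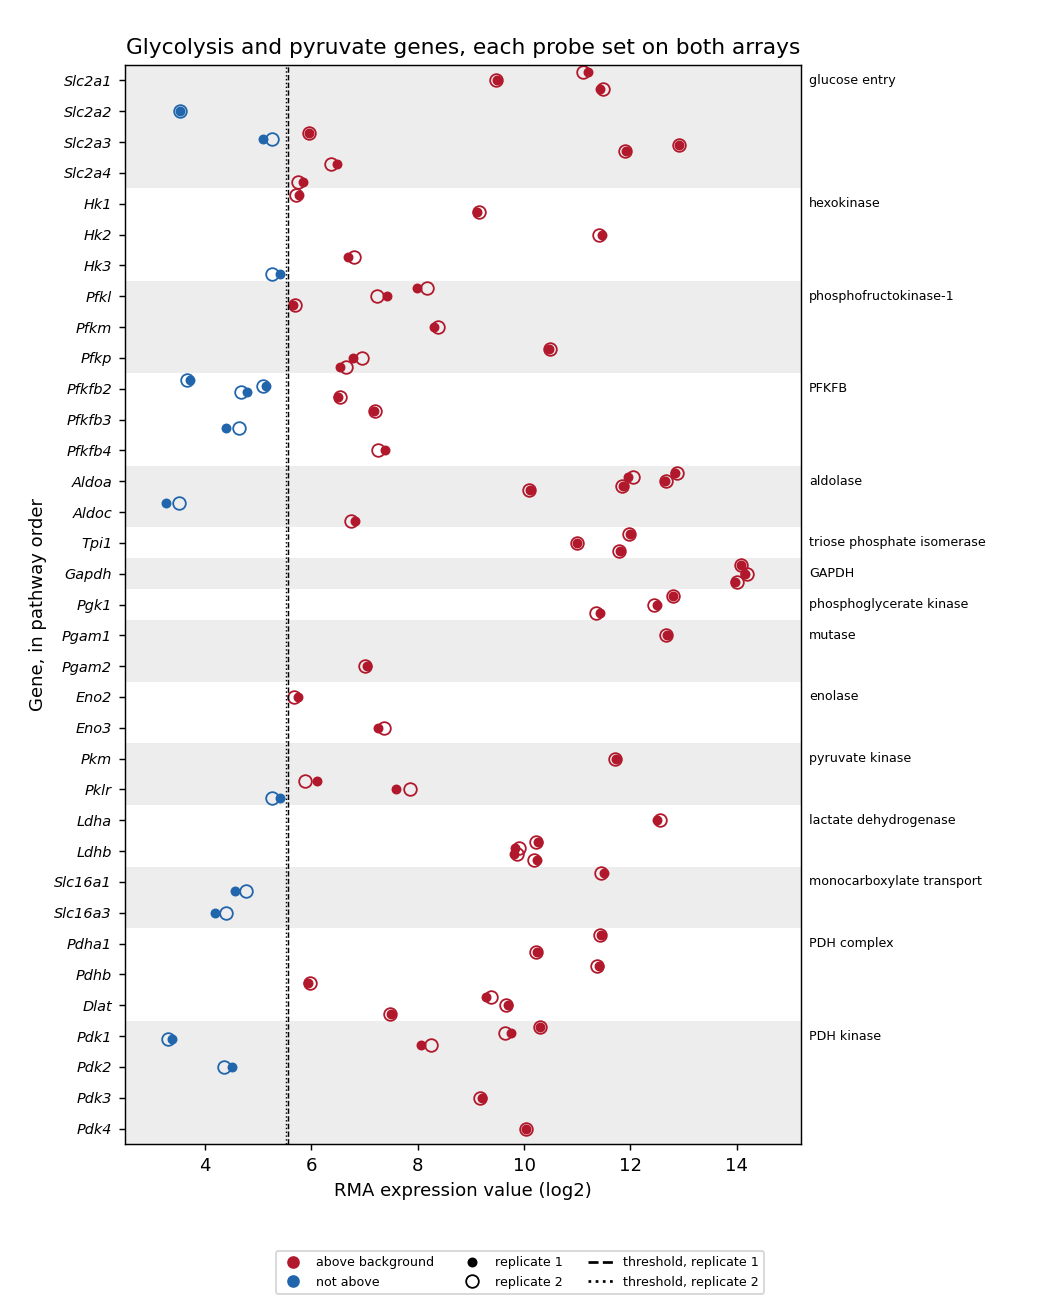
RMA expression values (log2, x axis) of every probe set of the 35 measured genes, in pathway order, with filled dots for replicate 1, rings for replicate 2, red for above background on both arrays and blue for not above. Gapdh probe sets sit near 14 and Slc2a2 near 3.54, and Slc2a3, Pdk1 and Slc16a1 each have probe sets on both sides of the thresholds (dashed and dotted lines).

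Promoters were looked at where the steps gave the clearest contrast, meaning that 1 measured isoform had every probe set above background and another had none. These were glucose entry (Slc2a1 against Slc2a2) and the PDH kinases (Pdk3 and Pdk4 against Pdk2). The 250 bases before the outermost RefSeq start of each gene are printed 5′ to 3′ from the RefSeq table of build GRCm38.p6, and capitals mark ACGTG or its reverse complement CACGT, the core letters of hypoxia response elements.
Slc2a1, chr4:119108495-119108744, plus strand: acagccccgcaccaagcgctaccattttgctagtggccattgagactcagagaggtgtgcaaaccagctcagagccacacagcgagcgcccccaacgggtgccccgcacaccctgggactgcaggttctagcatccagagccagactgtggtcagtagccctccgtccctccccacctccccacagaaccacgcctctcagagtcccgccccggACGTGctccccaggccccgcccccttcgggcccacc
Slc2a2, chr3:28697653-28697902, plus strand: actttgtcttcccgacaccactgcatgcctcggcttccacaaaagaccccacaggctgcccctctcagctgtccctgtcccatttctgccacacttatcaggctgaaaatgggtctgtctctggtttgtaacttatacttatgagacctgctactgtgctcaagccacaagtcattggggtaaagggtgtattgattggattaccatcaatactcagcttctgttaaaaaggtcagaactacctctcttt
Pdk3, chrX:93832151-93832400, minus strand: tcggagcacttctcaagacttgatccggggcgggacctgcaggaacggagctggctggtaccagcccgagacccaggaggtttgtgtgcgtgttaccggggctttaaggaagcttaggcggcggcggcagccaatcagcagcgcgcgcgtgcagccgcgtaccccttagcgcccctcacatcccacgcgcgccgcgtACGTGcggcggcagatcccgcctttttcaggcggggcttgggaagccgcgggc
Pdk4, chr6:5496279-5496528, minus strand: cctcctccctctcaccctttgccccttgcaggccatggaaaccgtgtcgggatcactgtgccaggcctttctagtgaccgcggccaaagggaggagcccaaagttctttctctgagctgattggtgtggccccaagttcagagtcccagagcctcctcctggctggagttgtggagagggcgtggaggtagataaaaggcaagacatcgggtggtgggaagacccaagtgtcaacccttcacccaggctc
Pdk2, chr11:95041372-95041621, minus strand: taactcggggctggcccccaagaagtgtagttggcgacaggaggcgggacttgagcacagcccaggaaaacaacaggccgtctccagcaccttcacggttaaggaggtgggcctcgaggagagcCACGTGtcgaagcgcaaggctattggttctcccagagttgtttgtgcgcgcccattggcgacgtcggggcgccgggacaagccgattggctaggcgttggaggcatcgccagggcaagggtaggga

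The core letters were found once in the Slc2a1 window, 36 bases before the start, and in none of the Slc2a2 window. They did not sort the kinases by call: the window of Pdk3 held them, that of Pdk4 did not, and that of Pdk2, whose probe set was not above background, held CACGTG. These longer letters are the E-box bound by Myc and Mlxipl family factors, and each such box also contains ACGTG on both strands. The window at another RefSeq start of Pdk2 held neither CACGTG nor ACGTG. Within the Slc2a pair base composition differed as well, with a GC content of 66.4% and 13 CpG pairs for Slc2a1, and of 47.2% and 2 CpG pairs for Slc2a2. For the kinases it did not follow the call, at 67.6% and 29 CpG pairs for Pdk3, 58.8% and 6 for Pdk4, and 62.4% and 19 for Pdk2. Over the start windows of all members with every probe set above background, the medians were 60.4% and 13 CpG pairs. For members with none above they were 60.6% and 15.5, over 4 windows of 3 genes.

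RefSeq listed 56 start windows for 36 of the 38 genes, with none for Slc2a3 or Slc2a4. ACGTG in either orientation was found in 20 of the 56 windows (35.7%) and in 16.6% of all 32851 windows in the table. CACGTG was found in 6 member windows (10.7%), against 6.02% of all windows. The shares for the GC box letters GGGCGG were 42.9% of member windows and 32.7% of all windows, for CCAAT 37.5% and 33.8%, and for TATAAA 5.36% and 12.4%, each on both strands. The median GC content was 58.8% in member windows and 52.4% in all windows, so windows rich in G and C were more frequent among the members, and the part of composition in the motif shares was not tested. Windows of the same gene were counted separately. By gene, ACGTG was found in 16 of the 36, with no share by gene over all genes to set beside it. The 16 genes with ACGTG included Slc2a1, Hk2, Pgk1, Pgam1, Aldoa and Ldha, and also Slc16a3 and Pdk2, which were not above background.

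Glucose entry was measured through 4 facilitative transporters. Slc2a1, which encodes the widespread transporter GLUT1, was above background on all 3 probe sets, with 11.21 and 11.11, 9.50 and 9.48, and 11.44 and 11.48. Slc2a3, which encodes the high-affinity transporter GLUT3, had 12.91 and 12.92 on 1437052_s_at and 11.91 and 11.91 on 1455898_x_at. Its other probe sets gave 5.96 and 5.97 on 1421924_at, just above background, and 5.10 and 5.26 on 1427770_a_at, which was not above. The bright Slc2a3 pair carries suffixes that mark probes which may bind other sequences, and only 1 of the dim pair passed. Slc2a4, the insulin-responsive transporter gene of muscle and fat, was above background on both probe sets at 6.49 and 6.37, and 5.84 and 5.75. Slc2a2, the transporter gene of liver and pancreatic beta cells, had 3.54 and 3.54, below the olfactory receptor median of 4.11.

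At the hexokinase step, which traps glucose as its phosphate, all 3 genes had a probe set above background, against 68.9% of all genes. Hk2, the gene of the inducible, mitochondrion-bound enzyme, had 11.46 and 11.41 on its 1 probe set. Hk1, the widespread form, gave 9.11 and 9.16 on 1 probe set and 5.78 and 5.72 on the other. Hk3, known from leukocytes, gave 6.69 and 6.81 on 1 probe set, and 5.42 and 5.27, not above background, on the other. The leukocyte markers on the same arrays were above background in 3 of 5 genes, against 68.9% of all genes. Among them were Cd3e at 6.58 and 6.55 and Csf1r at up to 6.86 and 6.60. The third was Lyz2, the myeloid lysozyme gene, named after its values were seen, at 9.32 and 9.34. Ptprc, which encodes the common leukocyte antigen, was not above at up to 3.96 and 4.14, nor was Itgam at 3.87 and 3.98. The part of leukocyte RNA in the Hk3 value was not tested.

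All 3 subunit genes of phosphofructokinase, the first committed step, were above background on all 7 probe sets, against 62.4% of all probe sets. Pfkp, the platelet-type subunit, ranged widely over its probe sets, with 10.46 and 10.50 on the brightest, 6.79 and 6.95 on another and 6.55 and 6.66 on the last. Pfkm, the muscle-type subunit, had 8.31 and 8.38. Pfkl, the liver-type subunit, gave 7.98 and 8.18, 7.43 and 7.25, and 5.65 and 5.71, so its last probe set cleared the thresholds narrowly. Subunits assemble into mixed tetramers, and transcripts of all 3 were measured in this culture.

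The PFKFB genes, whose products make and break down the activator of phosphofructokinase, were above background in all 3 measured members but on only 3 of 7 probe sets. The shares over the whole array were 68.9% of genes and 62.4% of probe sets. Pfkfb3, the form with the strongest kinase activity, had 7.18 and 7.19 on 1 probe set and 4.40 and 4.65, not above background, on the other. Pfkfb4 had 7.38 and 7.27. Pfkfb2, known from heart, was above background on 1 of 4 probe sets, 1429486_at with 6.51 and 6.54, while the other 3 had means of 3.70 to 5.13. Represented by the median over its probe sets, Pfkfb2 was not above background.

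In the middle of the pathway Aldoa, Tpi1, Gapdh and Pgk1 were above background on every probe set. Aldoa, the muscle and widespread aldolase gene, was measured by 5 probe sets, all above background, with means of 10.10 to 12.86. Tpi1, the triose phosphate isomerase gene, had means of 10.995 to 11.98 on 3 probe sets, and Pgk1, the X-linked phosphoglycerate kinase gene, 11.39 to 12.80 on 3. Gapdh, the glyceraldehyde phosphate dehydrogenase gene, was measured by 3 control probe sets along the transcript at means of 13.99 to 14.16. The gap between the 3′ and 5′ probe sets, which reflects how intact the RNA is, came to -0.060 on replicate 1 and -0.10 on replicate 2 (3′ minus 5′). The control probe sets of Pcx, the pyruvate carboxylase gene, were less even. They had 8.19 and 8.18 at the 3′ end, and 6.83 and 6.95 at the 5′ end. The middle ones had 6.73 and 6.64, and 5.86 and 5.81, so the values did not fall steadily from 3′ to 5′. The part of RNA quality in the Pcx values was not tested. All 5 Aldoa probe sets carry the suffix of probes that may bind other sequences, and no other Aldoa probe set was there to compare.

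Aldoc, the brain aldolase gene, showed how far a call can rest on 1 probe set. It had 6.82 and 6.76 on 1451461_a_at, above background, and 3.27 and 3.51 on 1424714_at, below the olfactory receptor median, although the annotation derives both from the same database sequence. Neuron markers were above background in 3 of 5 measured genes, against 68.9% of all genes. Stmn2, a tubulin-binding protein gene, had 10.45 and 10.47 and 11.54 and 11.59 on its probe sets. Rbfox3, a neuronal splicing factor gene, had 6.84 and 6.71 on 1 of 3. The third was the synaptic gene Syn1, named after its values were seen, at 5.63 and 5.57, close to the thresholds. The synaptic genes Snap25, at 3.07 and 2.79 and 3.16 and 3.10 on its probe sets, and Syt1, at up to 5.44 and 5.38, were not above. The part of neuronal RNA in Aldoc was not tested.

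Further down, the mutase and enolase steps included muscle isoforms. Pgam1, the widespread phosphoglycerate mutase gene, had 12.70 and 12.67, and Pgam2, its muscle counterpart, 7.05 and 7.01, both above background. Eno3, the muscle enolase gene, had 7.26 and 7.37. Eno2, the neuronal enolase gene, had 5.75 and 5.69, which was closer to the thresholds than the brightest probe set of any other member that passed, and it was not above with the 99th percentile or with vomeronasal and taste receptors as the reference. Muscle markers on the same arrays were mixed. Above background were 4 of 6, against 68.9% of all genes. Among them were Ckm, at up to 6.39 and 6.13, and Acta1, at 8.12 and 8.11. Mylpf, a fast-fibre myosin light chain gene named after its values were seen, had 10.33 and 10.41, whereas Myog, the muscle regulator, was at 4.73 and 4.74 and Myh4, a fast myosin gene, at up to 3.62 and 3.69. How far muscle-type cells bear on Pgam2 and Eno3 was not tested.

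Pyruvate kinase makes pyruvate. Pkm, which encodes both the adult muscle form and the form of dividing cells through alternative exons, had 11.72 and 11.71 on its 1 probe set, which gives no split between those forms. Pklr, the gene of the liver and red cell enzyme, had 7.59 and 7.86 on 1421259_at, 6.10 and 5.88 on 1421258_a_at, and 5.42 and 5.26 on 1438711_at, so 2 of its 3 probe sets were above background. Liver markers were above background in 2 of 5 measured genes, against 68.9% of all genes. These were Apoa1 on 1 of 4 probe sets (5.64 and 5.82) and Ttr on 1 of 4 (6.50 and 6.60). Alb, which encodes serum albumin, was not (4.79 and 4.60), nor was Tat (5.13 and 5.12). The part of liver-type RNA in Pklr was not tested.

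At the branch to lactate, both lactate dehydrogenase genes were above background on every probe set. Ldha, the subunit favoured in glycolytic tissue, had 12.49 and 12.55 on its 1 probe set. Ldhb, the heart-type subunit, was even across its 4 probe sets, at means of 9.84, 9.86, 10.22 and 10.24. The exporters differed in their calls. Slc16a1, which encodes the widespread transporter MCT1, had 11.51 and 11.44 on 1415802_at and 4.57 and 4.77, not above background, on 1446274_at. Slc16a3, which encodes MCT4, the exporter of strongly glycolytic cells, had 4.20 and 4.41 on its 1 probe set, not above background. That probe set was not above background under any of the 8 alternative settings, while Slc16a1 was above in each of them. No setting adds a second Slc16a3 probe set, and the dimmer Slc16a1 probe set was also low. A poor Slc16a3 probe set therefore cannot be told apart from a silent gene.

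At the branch to the mitochondrion, the PDH complex genes were above background on all 7 probe sets, against 62.4% of all probe sets. Pdha1, the X-linked gene of the catalytic alpha subunit, had 11.45 and 11.43, and 10.25 and 10.23. Dlat, the acetyltransferase core, had 9.28 and 9.38, 9.70 and 9.67, and 7.50 and 7.47. Pdhb, the beta subunit, had 11.40 and 11.36 on 1416090_at but only 5.95 and 5.98 on 1448214_at, a gap of 5.42 log2 units between probe sets derived from the same sequence.

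Of the 4 PDH kinases, which switch the complex off, 3 were above background, near the 68.9% of all genes. Pdk1, a hypoxia-inducible kinase, gave 10.30 and 10.30, 9.75 and 9.64, and 8.07 and 8.26 on 3 probe sets, and 3.39 and 3.31 on the fourth, 1434974_at, which was not above. Pdk3 had 9.21 and 9.18. Pdk4, the kinase known from starvation and fatty acid use, had 10.03 and 10.04. Pdk2, the widespread kinase, was not above background at 4.52 and 4.37, nor under any of the 8 alternatives. Pdk2 to Pdk4 have 1 probe set each, so a poor probe set cannot be told apart from a silent gene.

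Values also differed between probe sets of a gene that the annotation derives from the same database sequence, and the causes of these differences were not tested. There were 11 such groups among the members, with a median range of 1.42 log2 units, from 0.40 (Ldhb) to 5.42 (Pdhb), against a median of 1.23 in 3788 groups over all genes. Over the 21 members with several probe sets of any origin, the median range was 2.40, against 2.18 over 9012 genes. Gaps of this size between isoforms cannot be read as relative amounts.

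The isoforms that textbooks assign to particular tissues are Slc2a2, Slc2a4, Hk3, Pfkfb1, Aldoc, Pgam2, Eno2, Eno3 and Pklr, and 8 of these 9 were measured. A probe set was above background in 7 of the 8, and every probe set in 4 of the 8 (Slc2a4, Pgam2, Eno2 and Eno3), against 68.9% and 47.5% of all genes. Pgam2, Eno2 and Eno3 have 1 probe set each, as does Slc2a2, which was not above. Of all genes with a single probe set, 54.0% were above background. By probe set, 9 of 13 were above, against 62.4% of all probe sets, so the shares with every probe set and by probe set were near those of all genes. Of the other 27 measured members, 25 had a probe set above background and 20 had all, with 53 of 62 probe sets above. The brightest probe set of the tissue isoforms ranged from 3.54 to 7.72, with a median of 6.77, and that of the other members from 4.30 to 14.16, with a median of 10.48. These are summaries of levels over genes with different probes, not amounts.

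Further isoforms of the same steps lay outside the list. Of 9 measured, 5 had a probe set above: Hkdc1, a hexokinase-like gene (6.27 and 6.43), Gapdhs, the sperm form of Gapdh (6.02 and 6.04), Ldhc, a testis lactate dehydrogenase gene (6.19 and 6.30), Pdha2, a testis counterpart of Pdha1 (6.37 and 6.39), and Slc16a8, a monocarboxylate transporter gene of the retinal epithelium (6.92 and 6.66). The other 4 were the fructose transporter gene Slc2a5 (5.45 and 5.29), the testis gene Pgk2 (3.54 and 3.77), Eno4, and Slc16a7, which encodes the transporter MCT2 (5.39 and 5.00). The brightest Eno4 probe set had 5.56 and 5.79 and passed on replicate 2 only. The 5 of 9 compare with 68.9% of all genes. Represented by the median over their probe sets, 3 of these 9 genes were above background. They were Gapdhs and Pdha2, and also Slc2a5, which passed because that setting puts the thresholds at 5.33 and 5.26, while Hkdc1, Ldhc and Slc16a8 lost their calls.

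Partners of the PDH complex were above background in all 7 measured genes, against 68.9% of all genes. Pdhx, which anchors Dld in the complex, had 8.14 and 8.13. Dld, the dehydrogenase that closes its reaction cycle, had 9.76 and 9.62 on 1 probe set and 3.78 and 3.86, not above background, on the other. The PDH phosphatase genes, which undo the kinases, were at 7.82 and 7.72 on the brighter Pdp1 probe set and at 5.88 and 5.90 for Pdp2, and Pdpr, the phosphatase regulator, reached 8.86 and 8.89. Mpc1, a subunit of the mitochondrial pyruvate carrier, had 10.39 and 10.49, and Bsg, the chaperone of the monocarboxylate transporters, 11.92 and 12.03. No probe set was assigned here to Mpc2 alone.

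Gluconeogenesis, the reverse path, was above background in 4 of 6 measured genes, near the 68.9% of all genes. The listed G6pc1 was left out because its symbol did not match the annotation, which uses G6pc, so its absence here is not one from the array. Pcx, the pyruvate carboxylase gene, reached 8.24 and 8.03, and Pck2, the mitochondrial carboxykinase gene, 9.01 and 9.03, whereas the cytosolic Pck1 was not above background (at most 3.89 and 3.92), nor was Fbp1 (5.64 and 4.95), which passed on replicate 1 only. The difference of Fbp1 between the arrays was -0.70 log2 units.

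Factors known to control glycolytic genes were above background in 9 of 10 genes, against 68.9% of all genes, and on 20 of 24 probe sets. Values given for a factor with several probe sets are those of the brightest. Hif1a, the oxygen-regulated subunit, had 12.97 and 12.95. Epas1, a second such subunit, had 10.10 and 10.14, and 6.34 and 6.49 on its other probe set. Arnt, the shared partner of both, had 9.19 and 9.12, but 2 of its 5 probe sets were not above background, at 5.49 and 5.58 and at 5.30 and 5.51. Myc had 9.98 and 10.06, and Mycn 10.02 and 10.11. Among the glucose-sensing factors Mlxip had 8.15 and 8.29 and their partner Mlx 8.44 and 8.47, while Txnip, a target that restrains glucose uptake, had 10.46 and 10.43. Tigar, a phosphatase that breaks down the activator made by PFKFB enzymes, reached 8.13 and 8.30. Mlxipl, which encodes the carbohydrate response factor ChREBP that is known to drive Pklr in liver and lies in the WBS region, was not above background at 5.05 and 5.12. The labels do not say whether Mlxipl lies inside the 1.3 Mb deletion or on how many alleles, so its value cannot be set against the deletion.

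**Figure D2:**
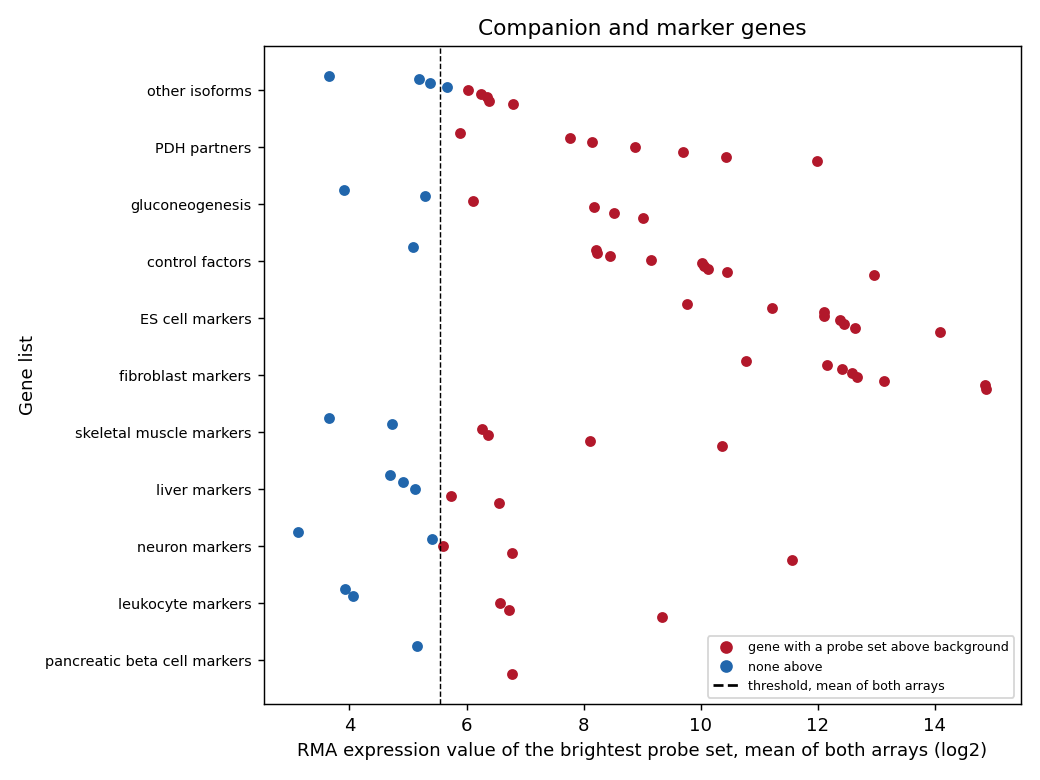
Brightest probe set of each companion and marker gene (mean RMA value of both arrays, log2, x axis) by list, red where any probe set of the gene was above background on both arrays and blue where none was. All ES cell and fibroblast markers lie at 9.76 or higher, and the tissue lists spread over both sides of the dashed threshold, with Eno4 just right of it but above on 1 array only.

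The culture held RNA of ES cells and of fibroblast type alike. All 8 ES cell markers were above background on all 11 probe sets, Pou5f1 at 12.65 and 12.62 and Nanog at 12.15 and 12.06. All 8 fibroblast markers were above background on 13 of 14 probe sets, Col1a1 at 12.69 and 12.66 and Col1a2 at 14.88 and 14.87 on their brightest. Both counts compare with 68.9% of all genes and 62.4% of all probe sets. Feeder monolayers are usually fibroblasts, so no isoform above background can be assigned to the ES cells from these arrays, and the part of feeder RNA in each value was not tested. Of the 2 measured beta cell markers 1 was above background, against 68.9% of all genes. Ins2 was above (6.68 and 6.87) and Pdx1 was not (at most 5.03 and 5.29).

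None of the 38 genes lies on chromosome 5, which carries the WBS region in the mouse. They lie on 14 chromosomes of the reference gene table, with 7 on chromosome 6 (Slc2a3, Hk2, Tpi1, Gapdh, Eno2, Ldhb and Pdk4), 6 on chromosome 11 and 4 on the X chromosome (Pfkfb1, Pgk1, Pdha1 and Pdk3). Members of both kinds, with every probe set above background and with none, sat on chromosome 11, Slc2a4, Pgam2 and Eno3 on one side and Slc16a3 and Pdk2 on the other.

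The arrays differed little in this pathway. Over the 62 member probe sets above background on at least 1 array, the difference of replicate 2 minus replicate 1 had an SD of 0.086 log2 units, against 0.12 over 22552 probe sets of 1 gene. The median absolute difference was 0.043, against 0.065 over all. The members split evenly in sign, with 30 higher in replicate 2 and 32 higher in replicate 1. None of the 62 differed by 1.5-fold or more, where 0.111% of all probe sets did, so a count of 0 says little about the members. The spread narrows with level, with an SD of 0.20 in the dimmest and 0.059 in the brightest of 10 level bins of all probe sets, and many members are bright.

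The widest difference was in Pklr. Its probe set 1421259_at was higher in replicate 2 by 0.27, outside the central 95% of probe sets of its level (-0.20 to 0.25), and it was the only member probe set outside that range, 1.61% of the 62 where 5% lie outside by construction. Its probe set 1421258_a_at ran the other way, by -0.22. A pair of Pfkl probe sets also parted, by 0.20 and -0.19. Where probe sets of the same gene move in opposite directions, the difference cannot be read as one of the transcript as a whole.

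**Figure D3:**
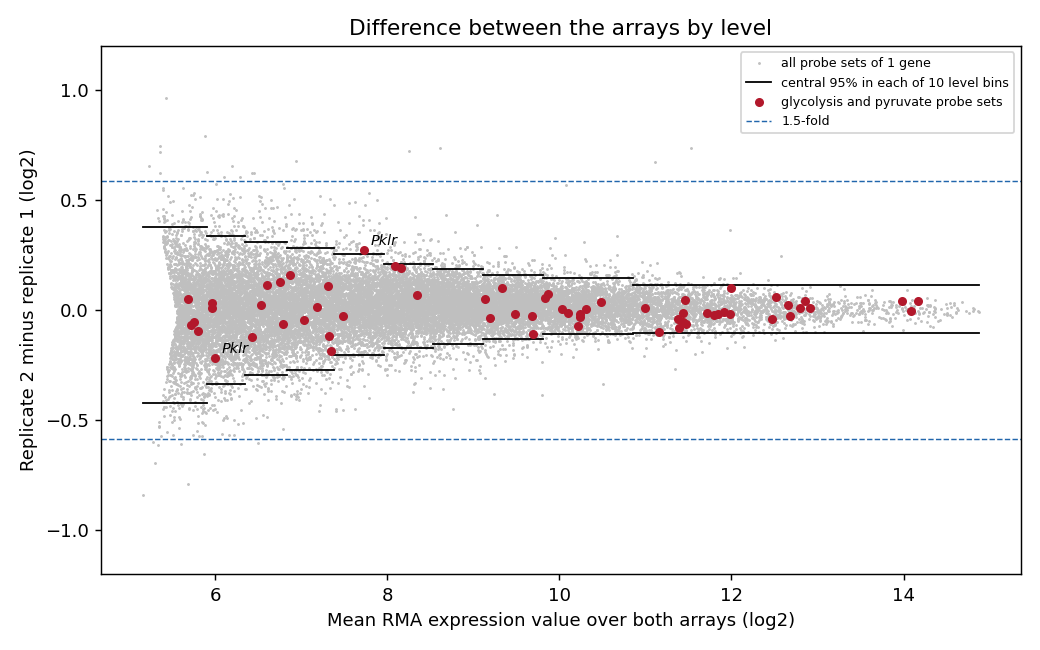
Replicate 2 minus replicate 1 (log2, y axis) against the mean RMA value of both arrays (log2, x axis), for the 62 glycolysis and pyruvate probe sets (red) and 22552 probe sets of 1 gene (grey), with black lines for the central 95% in each of 10 level bins and dashed lines for 1.5-fold. The red points stay inside the dashed lines, and the upper Pklr point, at 0.27, lies just above its black line.

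Calls near the thresholds were few. Just inside were probe sets of Pfkl (mean 5.68), Eno2 (5.72), Hk1 (5.75) and Slc2a4 (5.79), and just outside were those of Hk3 (5.34), Pklr (5.34) and Slc2a3 (5.18). No member probe set passed on 1 array only. With vomeronasal and taste receptors as the reference, the thresholds were 5.92 and 6.13, and 55 of the 75 probe sets (73.3%) were above, against 54.8% of all. The 7 that were lost belonged to Slc2a3, Slc2a4, Hk1, Pfkl, Eno2, Pklr and Pdhb, and only Eno2 lost its last one.

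**Figure D4:**
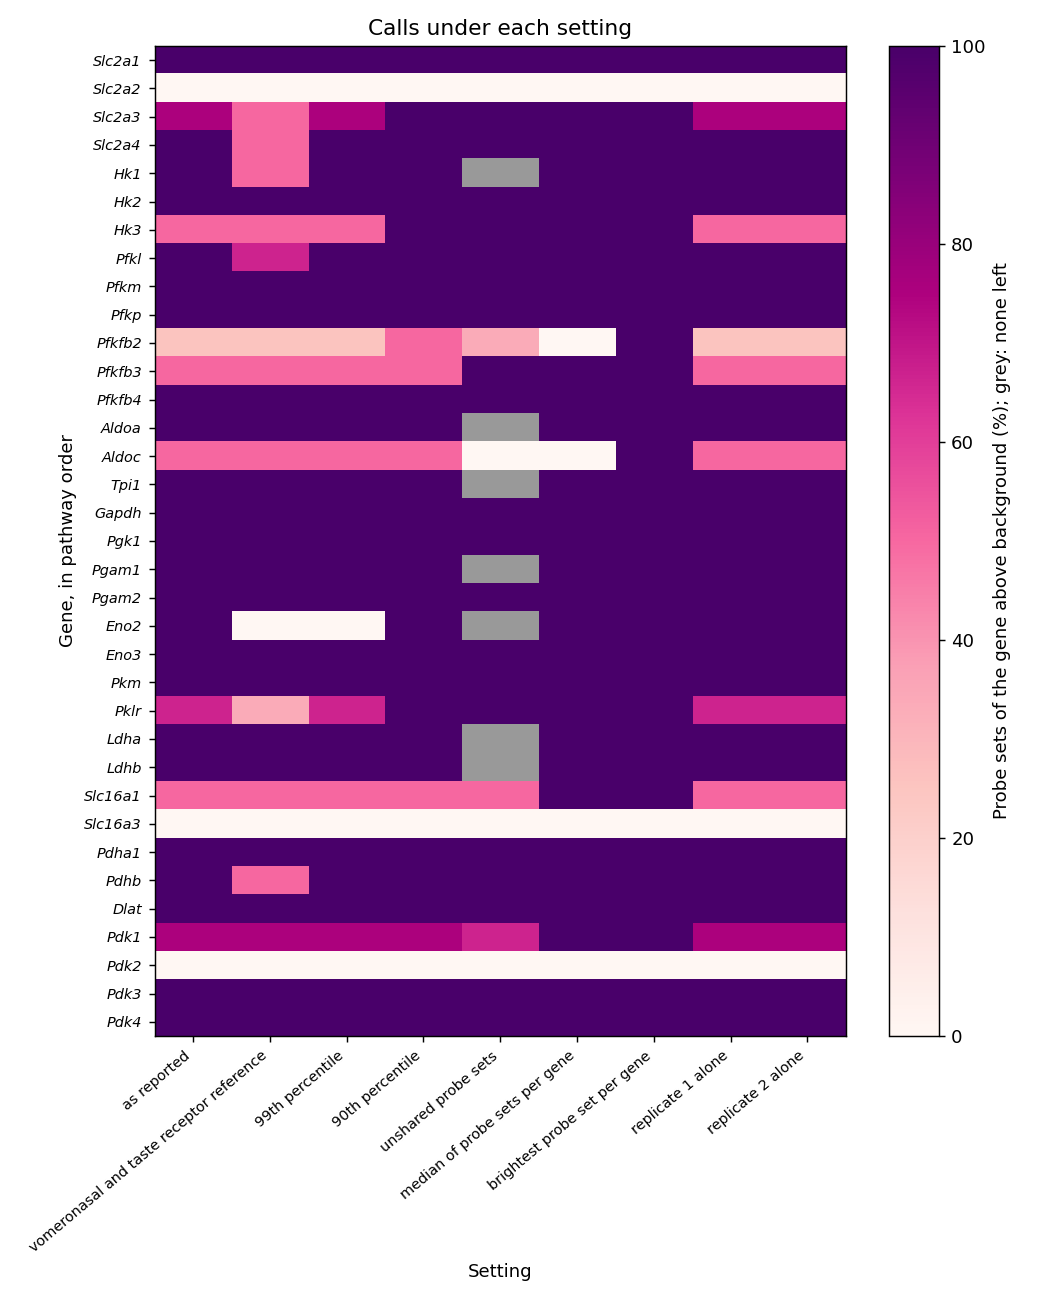
Percent of each gene's probe sets above background (colour) for the 35 measured genes (rows, in pathway order) under the reported rule and 8 alternatives (columns); in the columns of the median and the brightest probe set a gene has 1 value. Slc2a2, Slc16a3 and Pdk2 are at 0 in every column, and grey cells are genes whose probe sets all end in _a_at, _s_at or _x_at.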

How the data were processed

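The authors deposited log2 values from RMA, per the submitters' processing notes; its version is not given in the sources used here. RMA corrects background, quantile-normalizes arrays and summarises probes, so a shift common to most genes is hidden, and it makes no detection call. Of 45101 probe sets, 34958 had 1 gene symbol in the platform annotation, 932 several and 9211 none here; 0 member symbols changed when checked by gene identifier. Value columns not used numbered 0. Counts and differences were computed with pandas 2.3.3 and statsmodels 0.14.6 in Python 3.11.15, after the rules were run on simulated data. The simulated signals lay far above the simulated silent values, so that check does not cover calls near the thresholds. With 1 group of 2 arrays there was no test between groups and no p-value, and the number of arrays limits the precision. Members, lists, tissue classes and the background rule were chosen with earlier results of these data known. The text names all members and the measured other isoforms, PDH partners and control factors, and of each remaining list the first 2 genes above background and the first 2 not. Lyz2, Mylpf and Syn1 were added after their values were seen. Alternatives were another receptor reference, the 99th and 90th percentiles, unshared probe sets (no _a_at, _s_at or _x_at), the median or brightest probe set per gene, each array alone and, for differences, loess (fraction 0.3), centring, no filter and 1.2-fold.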

Additional observations from a re-analysis of the deposited data

Results flagged for a closer look

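Probe sets that the annotation assigns to several genes, among them a listed one, were left out of the counts, and 4 of these were above background. For Gapdh there were 3: 1418625_s_at, assigned to 5 genes, had a mean of 14.22 ± 0.017 (SD, n = 2), and 1447999_x_at and 1457612_at, each shared with the pseudogene Gapdh-ps15, had means of 8.52 ± 0.065 and 6.53 ± 0.12. The probe set 1436822_x_at, assigned to 6 genes that include Hk1, had a mean of 14.03 ± 0.044. The other 5 are the ribosomal protein gene Rpl17, its pseudogenes Rpl17-ps9 and Rpl17-ps10, and the predicted genes Gm10362 and Gm6133; how much of the signal is Hk1 was not tested. Groups of 2 arrays are too small to look for a sample that stands apart.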

How the results depend on the processing

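Of 119 alternative values for counts and spreads, 111 were within 1.5 times what is reported and 8 were not. With unshared probe sets, which also takes the thresholds from unshared receptor probe sets (5.28 and 5.21), the count of member probe sets above background was 33 of 41 in place of 62 of 75. It left out 34 shared member probe sets, 30 of them above; at the reported thresholds 32 of the rest were above, and Pklr 1438711_at (5.42 and 5.26) passed through the lower ones. It left 28 genes, 24 of them above background. Under the same setting the muscle marker count was 2 of 5 (reported 4 of 6), the liver count 0 of 3 (2 of 5) and the beta cell count 0 of 1 (1 of 2). The liver count was 1 of 5 with vomeronasal and taste receptors. Taking the median over each gene's probe sets, in the reference too (5.33 and 5.26), it was 0 of 5, and the count of other isoforms was 3 of 9 (reported 5), with 3 calls lost and Slc2a5 gained. At 1.2-fold, 1 member probe set passed in place of 0, where 5.05% of all probe sets did. Member genes with a probe set above background numbered 30 to 32 of 35 under the settings that kept all genes. Each array alone gave 62 probe sets, 32 genes with any and 24 genes with every probe set above. With each array alone the list counts were as reported, except 5 to 6 for the other isoforms and 4 to 5 for gluconeogenesis. Calls of single members were lost by Eno2 under 2 settings, Aldoc under 2 and Pfkfb2 under 1. The SD of the difference, 0.086, was 0.085 with loess and 0.10 without the filter. No paired analysis was possible because the series holds a single group. Signal over background limits the dim isoforms, where a weak transcript and no transcript look alike.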
